A study of Homo sapiens with 5 samples.

Results

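Gene expression after knockdown of CCT2 was described in the first of the study's 2 deposited expression tables, which holds 3 of the 5 libraries: shCtrl 1, shCCT2 1 and shCCT2 2. Every gene of that table with 20 or more counts in at least 1 of the 3 libraries was included, which kept 12166 of the 15950 genes listed there and left out 3784. Over both tables of the study, 13288 of 16982 listed genes met the same criterion in at least 1 of the 5 libraries. All 3 libraries were RNA of SAS, an established cell line of human tongue squamous cell carcinoma. The shCtrl 1 cells carried a control short hairpin RNA, and the shCCT2 1 and shCCT2 2 cells carried short hairpin RNA that lowers CCT2 messenger RNA. The labels name no other allele, drug or time point, and they do not state the hairpin sequences, whether shCCT2 1 and shCCT2 2 carried the same hairpin, whether cells were pooled or cloned, or whether the libraries came from separate cultures. An effect of a hairpin on genes other than its target therefore cannot be told apart from an effect of lower CCT2. With 1 control library there is no replicate of the control and no test was made; a change is the log2 ratio of CPM (a gene's count scaled to its library's total, with 0.5 added) of 1 knockdown library to shCtrl 1, and every pair of changes below shares that control.

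CCT2 encodes the beta subunit of CCT (also called TRiC), the ring-shaped chaperonin of the cytosol that encloses newly made proteins and folds them with the energy of ATP. Its best known clients are actin and tubulin, and its subunits sit side by side in each ring, so a complete ring needs all of them. The series' title ties CCT2 to growth and migration of head and neck carcinoma cells and to PI3K-AKT signalling, a relay from growth factor receptors to cell growth, survival and metabolism.

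Total counts were 17976500 for shCtrl 1, 18156600 for shCCT2 1 and 17555800 for shCCT2 2, and 20 counts stand for 1.10 to 1.14 CPM. All 13 markers of squamous carcinoma cells passed the filter. They summed to 13134 CPM in shCtrl 1, 8932 in shCCT2 1 and 13076 in shCCT2 2. Of markers of other cell types, 4 of 10 fibroblast, 4 of 10 leukocyte and 3 of 8 endothelial genes passed, with sums of 14.9 to 33.1, 74.1 to 116 and 2.5 to 7.3 CPM. CD68, a lysosomal protein of macrophages and other cells, made up most of the leukocyte sum, at 108, 68.0 and 93.8 CPM in shCtrl 1, shCCT2 1 and shCCT2 2. PTPRC, the common antigen of leukocytes, had 1, 11 and 109 counts. Reads were also spread differently along transcripts: 16.7% of shCtrl 1 reads, 13.8% of shCCT2 1 reads and 15.3% of shCCT2 2 reads fell in the last 20% of window positions.

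The targeted gene was lower in both knockdown libraries by a similar amount. CCT2 (gene 10576) stood at 608 CPM in shCtrl 1, 277 in shCCT2 1 and 260 in shCCT2 2. Its log2 changes were -1.13 in shCCT2 1 (95% exact binomial interval of the count ratio -1.18 to -1.09) and -1.22 in shCCT2 2 (-1.28 to -1.18), where the intervals cover counting error only. These are 2.19-fold and 2.34-fold lower levels, with a mean log2 change of -1.18 ± 0.06 (SD, n = 2 knockdown libraries). RNA from a mixed population does not show whether fewer cells carried the transcript or each cell carried less of it, here and in all results below. The 7 other subunit genes of the ring did not go down with CCT2. In shCCT2 1 each of them was above shCtrl 1, from CCT5 at 0.07 to CCT6A at 0.40 on the log2 scale, while in shCCT2 2 they lay between -0.05 for CCT4 and 0.03 for TCP1. CCT6A, which encodes the zeta subunit, stood at 537, 710 and 544 CPM in shCtrl 1, shCCT2 1 and shCCT2 2. TCP1, the alpha subunit, stood at 647, 775 and 662 CPM. Of 12 genes of prefoldin and other partners that hand proteins to CCT, 0 differed by 1.5-fold from shCtrl 1 in both libraries. Of all genes, 0.567% were that much higher in both and 1.89% that much lower.

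Beyond CCT2, few genes were far from shCtrl 1 in both knockdown libraries. In shCCT2 1, 70 genes (0.575% of the genes that passed) were at least 2-fold higher than in shCtrl 1 and 440 (3.62%) at least 2-fold lower. In shCCT2 2 there were 57 higher (0.469%) and 77 lower (0.633%). At least 2-fold higher in both were 15 genes (0.123%), and at least 2-fold lower in both were 35 (0.288%). These counts depend on the 0.5 CPM added: with 0.1 CPM they were 30 and 70, and with 1 CPM 10 and 22. At 1.5-fold, used for gene lists below, shCCT2 1 had 363 genes higher (2.98%) and 1391 lower (11.4%), and shCCT2 2 had 239 higher (1.96%) and 358 lower (2.94%). In both libraries, 69 genes were at least 1.5-fold higher (0.567%) and 230 at least 1.5-fold lower (1.89%). A gene that reached 20 counts only on the side where it is high had to differ, and without such genes these counts were 45 and 163. The knockdown libraries also differed from each other, a comparison that needs no control. Relative to shCCT2 1, shCCT2 2 had 315 genes at least 2-fold higher (2.59%) and 79 at least 2-fold lower (0.649%), and at 1.5-fold these were 1106 (9.09%) and 340 (2.79%). These counts compare 1 pair of libraries, as do the counts of each knockdown library against shCtrl 1. They are not alike to the counts of genes that had to pass in both knockdown libraries, which are smaller by construction.

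**Figure D1:**
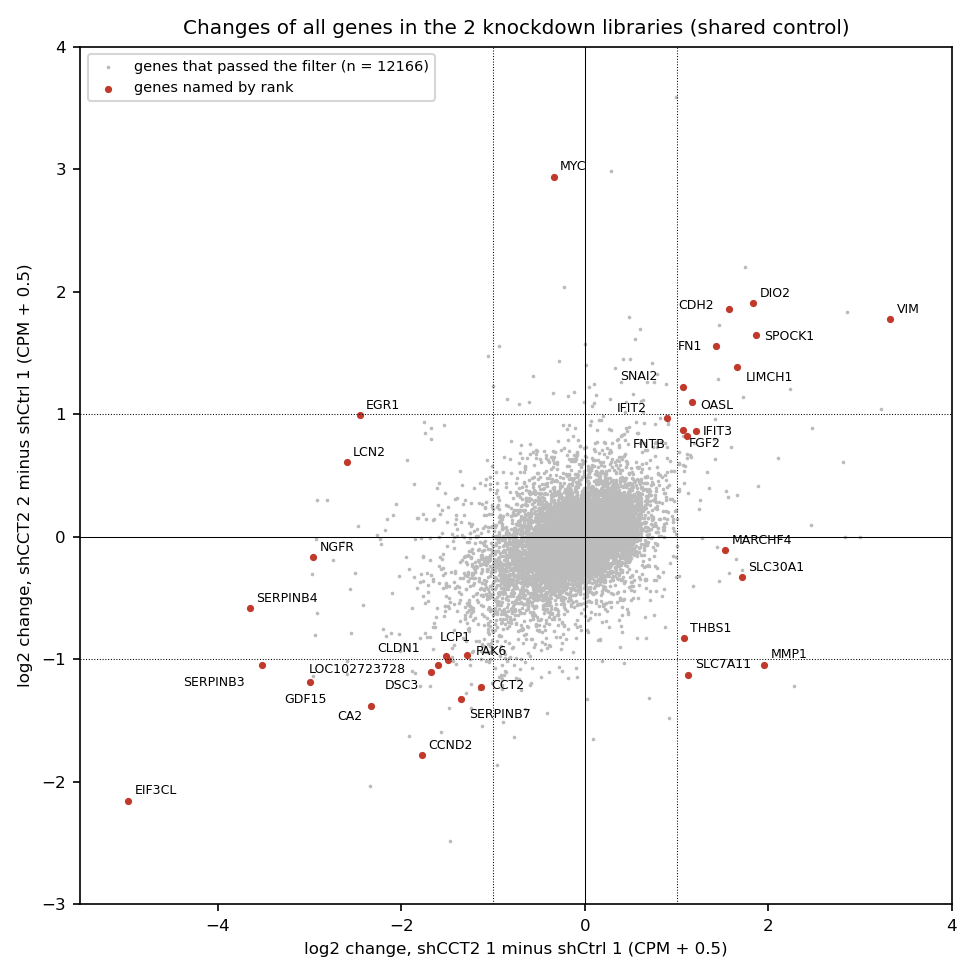
Log2 change of each of the 12166 genes in shCCT2 1 (x axis) and shCCT2 2 (y axis), both against the same shCtrl 1 library on CPM with 0.5 added, with dotted lines at 2-fold and red points for the genes named by rank. CCT2 lies at -1.13 and -1.22, DIO2 and CDH2 lie high in both, and MYC, EGR1 and MMP1 lie on different sides of shCtrl 1 in the 2 libraries.

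The genes of the next paragraphs were picked because both knockdown libraries lay on the same side of shCtrl 1, at a mean of at least 10 CPM, so that sharing a side is not a result. The 12 higher genes were DIO2, VIM, SPOCK1, CDH2, FN1, LIMCH1, OASL, SNAI2, IFIT2, FGF2, IFIT3 and FNTB, of which the 3 interferon-induced genes OASL, IFIT2 and IFIT3 are described with their list. DIO2, the deiodinase that turns thyroid hormone into its active form, stood at 24.4 CPM in shCtrl 1, 88.5 in shCCT2 1 and 92.8 in shCCT2 2. The knockdown libraries differed from each other by 0.07 on the log2 scale for DIO2, and both changes were near 1.9 (1.84 and 1.91). FN1, which encodes fibronectin, a glycoprotein of the matrix that cells grip through integrins, stood at 1817, 4888 and 5349 CPM in shCtrl 1, shCCT2 1 and shCCT2 2. It was 2.69-fold and 2.94-fold higher, and rested on 32671 counts in shCtrl 1 alone. CDH2, or N-cadherin, the adhesion protein of nerve and mesenchymal cells, stood at 9.90, 30.3 and 37.3 CPM.

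SPOCK1, which encodes a secreted proteoglycan, stood at 15.7 CPM in shCtrl 1, 58.7 in shCCT2 1 and 50.3 in shCCT2 2 (log2 changes of 1.86 and 1.64). LIMCH1, an actin-associated protein with LIM and calponin homology domains, stood at 20.7, 66.5 and 55.0 CPM. Both knockdown libraries were about as far from shCtrl 1 for these genes. VIM, the intermediate filament protein vimentin, was the exception in size: it stood at 6.12 CPM in shCtrl 1, 66.0 in shCCT2 1 and 22.2 in shCCT2 2, which is 10.1-fold higher in one library and 3.43-fold higher in the other. SNAI2, or Slug, a zinc finger repressor of epithelial genes, stood at 32.2, 68.2 and 76.0 CPM, with changes of 1.07 and 1.23. FGF2, a fibroblast growth factor, stood at 103, 216 and 189 CPM. FNTB, the beta subunit of protein farnesyltransferase, stood at 6.20, 14.0 and 11.4 CPM. Counts of FGF2 and FNTB were fractional in all 3 libraries, so reads were shared with other gene models and both are uncertain; CHURC1-FNTB, which reads through FNTB, went from 8.12 CPM in shCtrl 1 to 6.34 and 4.97.

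**Figure D2:**
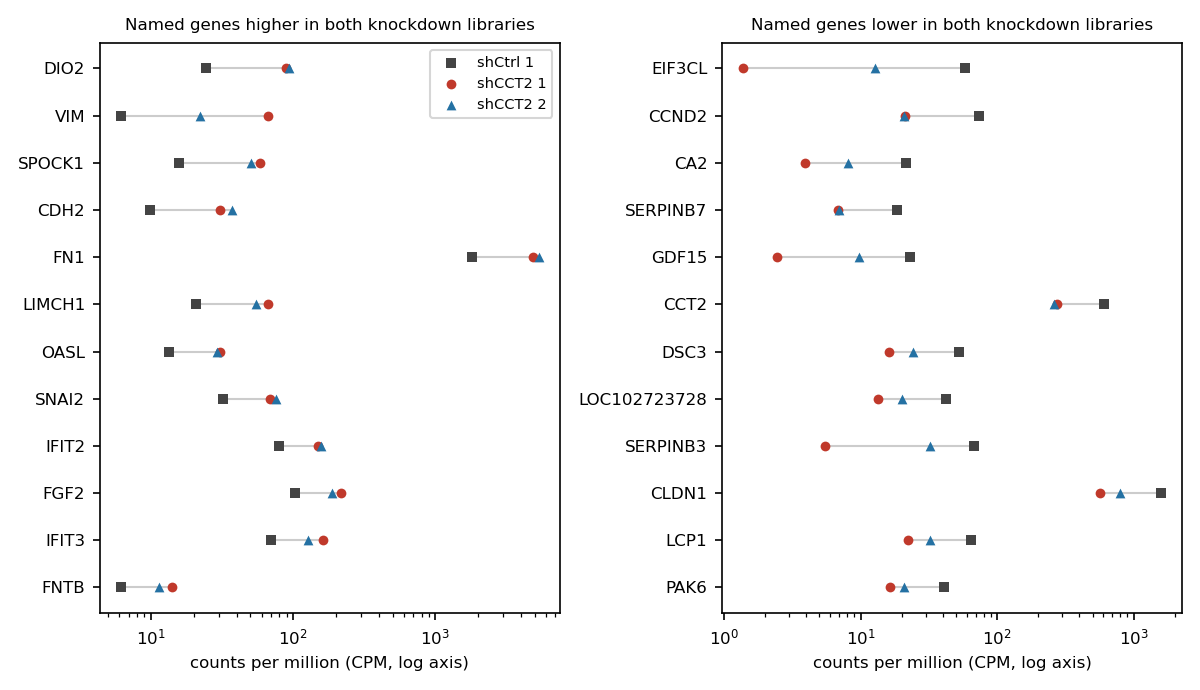
CPM on a log axis of the 12 genes with the largest shared change upward (left) and downward (right) in shCtrl 1 (squares), shCCT2 1 (circles) and shCCT2 2 (triangles), joined by a grey line per gene. For DIO2, CCND2 and SERPINB7 the knockdown libraries nearly coincide, while for VIM, GDF15 and SERPINB3 they lie far apart on the same side of shCtrl 1.

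Among the lower genes, CCND2 was the closest match between the knockdown libraries. CCND2, which encodes cyclin D2, a partner of CDK4 and CDK6 in G1, stood at 73.4 CPM in shCtrl 1, 21.1 in shCCT2 1 and 21.0 in shCCT2 2, a change of -1.78 in each. SERPINB7, a serine protease inhibitor of keratinocytes, stood at 18.4, 6.88 and 7.01 CPM. CLDN1, the tight junction protein claudin-1, stood at 1589, 566 and 790 CPM. DSC3, a cadherin of desmosomes, stood at 52.5, 16.0 and 24.1 CPM, with fractional counts in 2 libraries. The changes of CLDN1 were -1.49 and -1.01, and those of DSC3 were -1.68 and -1.11. LCP1, or L-plastin, which bundles actin filaments, stood at 64.3, 22.2 and 32.5 CPM, and PAK6, a kinase of the p21-activated family whose counts were fractional, at 40.8, 16.5 and 20.6 CPM. For CLDN1, DSC3, LCP1 and PAK6 shCCT2 1 lay below shCCT2 2.

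Some lower genes had very unequal knockdown levels. GDF15, a stress-induced cytokine of the TGF-beta superfamily, stood at 22.9 CPM in shCtrl 1, 2.42 in shCCT2 1 and 9.80 in shCCT2 2, which is 8.01-fold and 2.27-fold lower. SERPINB3, squamous cell carcinoma antigen 1, stood at 67.6, 5.45 and 32.5 CPM. CA2, a carbonic anhydrase, stood at 21.7, 3.91 and 8.03 CPM. EIF3CL ranked first by the smaller of its changes, at 58.7, 1.37 and 12.8 CPM, but its sequence is nearly identical to EIF3C, a subunit of translation initiation factor 3. EIF3C stood at 565, 691 and 546 CPM, and the counts of both were fractional in all 3 libraries, so how reads were split between the copies is uncertain. LOC102723728, for which no role is given, stood at 42.0, 13.5 and 20.1 CPM and was also fractional.

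Among the 15 genes at least 2-fold higher in both libraries, 8 had a mean of at least 10 CPM, and of the 35 lower genes 10 did. The remaining 7 and 25 were scarcer. Of those scarcer genes, PRLR, the prolactin receptor, had 3 counts in the control library and 79 and 33 in the knockdown libraries. LTB, or lymphotoxin beta, a membrane cytokine of the TNF family, stood at 14.96 CPM in shCtrl 1, 3.58 in shCCT2 1 and 4.50 in shCCT2 2. BHLHE41, a repressor of the circadian clock, stood at 11.3, 2.70 and 5.01 CPM. A group of 4 gene models at these low levels was made up of read-through or duplicated loci with 0 counts in at least 1 library: PHOSPHO2-KLHL23, MINOS1-NBL1, SERF1A and GCOM1. PRLR, LTB, BHLHE41 and these models were chosen after their values were seen. Fractional counts occurred in at least 1 library for 4 of the 15 higher and 8 of the 35 lower genes. A gene can pass the filter through 1 side alone: 147 genes reached 20 counts in shCtrl 1 only, 10 of them in the lower set, and 214 in knockdown libraries only, 6 of them in the higher set. Just inside the filter were 188 genes with a highest count from 20 to under 25, and just outside were 283 with 15 to under 20.

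Genes of the type I interferon response formed the list, of 34, with the most members at least 1.5-fold higher in both libraries. The lists and their members were chosen with earlier results of these data known, so this rank is a description only. Interferons act through receptors that switch on transcription factors, and these bind a repeated GAAA element upstream of antiviral genes. Of 37 members that passed, 9 were at least 1.5-fold higher in both knockdown libraries and 0 lower in both, beside 0.567% and 1.89% of all genes. The list median was 0.15 in shCCT2 1 and 0.36 in shCCT2 2, beside -0.04 and -0.02 for all genes. The 9 were RSAD2, CMPK2, OASL, IFIT1, IFIT2, IFIT3, IFI44, DDX60 and OAS2, or 8 without RSAD2, which passed the filter through the knockdown libraries alone. Promoters of RSAD2, CMPK2 and IFIT3 are shown because they differ in this element. Each run is the 250 bases before an annotated start in RefSeq on GRCh38.p14, read 5′ to 3′ on the gene's strand, with the element in capitals. The element searched was GAAA, any 2 bases (N), then GAAA, on either strand, so that the other strand reads TTTC, 2 bases, TTTC. RSAD2 lies at chr2:6877527-6877776 on the plus strand, with 1 match at -145 from the start. The RSAD2 start listed first had none and is not shown, so RSAD2 differs from CMPK2 only at the start shown. IFIT3 lies at chr10:89327747-89327996 on the plus strand, with matches at -156 and -122; a second IFIT3 start, not shown, had matches at -94 and -51. CMPK2, at chr2:6866636-6866885 on the minus strand, has no match, and neither do its 2 other starts. For IFIT3 and CMPK2 the start listed first is shown, and for RSAD2 the start with the match.
RSAD2: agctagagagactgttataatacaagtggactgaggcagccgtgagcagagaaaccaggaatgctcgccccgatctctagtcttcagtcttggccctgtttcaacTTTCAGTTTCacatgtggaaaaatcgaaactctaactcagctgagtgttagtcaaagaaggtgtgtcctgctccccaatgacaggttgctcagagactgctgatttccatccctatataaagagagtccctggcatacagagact
IFIT3: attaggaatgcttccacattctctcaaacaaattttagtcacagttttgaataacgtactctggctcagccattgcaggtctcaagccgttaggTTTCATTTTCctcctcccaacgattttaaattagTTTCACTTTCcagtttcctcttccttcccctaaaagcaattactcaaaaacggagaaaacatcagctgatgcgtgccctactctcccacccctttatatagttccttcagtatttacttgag
CMPK2: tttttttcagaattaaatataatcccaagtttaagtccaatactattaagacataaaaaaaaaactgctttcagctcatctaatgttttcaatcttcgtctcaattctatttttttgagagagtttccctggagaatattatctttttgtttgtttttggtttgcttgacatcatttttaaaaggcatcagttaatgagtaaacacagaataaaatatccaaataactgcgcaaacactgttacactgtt

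Of the list members with a RefSeq promoter, 22 of 31 (71.0%) held the element on either strand in the 250 bases before a start, against 328 of 9935 (3.30%) among all genes that passed and 3.02% of all 35116 promoters in the table. Within the list, 5 of the 6 matched members that were 1.5-fold higher in both libraries held it, and so did 17 of the 25 others (68.0%). Over all genes with a promoter entry, it was found in 8 of 50 that were 1.5-fold higher in both and in 5 of 178 that were 1.5-fold lower in both. Of those 8, 5 are the list members just counted, RSAD2 among them, so this share is not separate from that of the list. RSAD2 passed the filter through the knockdown libraries alone, and neither share was computed without such genes. Each match is a stretch of letters and was not tested as a bound site. RSAD2, or viperin, an antiviral enzyme, stood at 0.501 CPM in shCtrl 1, 2.86 in shCCT2 1 and 4.10 in shCCT2 2, from 9, 52 and 72 counts. Its mean change was 2.55 with 0.1 CPM added and 1.56 with 1 CPM. CMPK2, a mitochondrial nucleotide kinase encoded beside RSAD2, stood at 1.56, 6.28 and 4.04 CPM. OASL, an antiviral protein related to oligoadenylate synthetases, stood at 13.4, 30.8 and 29.3 CPM.

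IFIT2 and IFIT3 encode interferon-induced proteins with tetratricopeptide repeats that bind foreign RNA or each other. IFIT2 stood at 79.9 CPM in shCtrl 1, 149 in shCCT2 1 and 157 in shCCT2 2 (changes of 0.90 and 0.97). IFIT3 stood at 69.9, 163 and 128 CPM (1.22 and 0.87), and IFIT1 at 27.1, 62.7 and 46.5 CPM. Not every member was higher. IFITM1, a membrane protein that blocks viral entry, stood at 13.9 CPM in shCtrl 1, 2.48 in shCCT2 1 and 14.0 in shCCT2 2. STAT2, a signal transducer of the interferon receptor, stood at 38.4, 26.6 and 37.9 CPM. A list of sensors and kinases of double-stranded RNA was described separately. It also holds genes that are neither, among them ADAR, AGO2 and DICER1. Of its 13 members that passed, 0 were 1.5-fold higher or lower in both libraries. Over all genes these shares were 0.567% and 1.89%. DDX58, the sensor RIG-I, stood at 72.7, 139 and 90.2 CPM, and EIF2AK2, the kinase PKR, at 141, 168 and 170 CPM. Genes of antigen presentation by MHC class I had medians of -0.25 in shCCT2 1 and 0.09 in shCCT2 2, and 0 of 16 passed 1.5-fold in both.

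Mesenchymal and matrix genes were mostly near shCtrl 1, with a few members far above it. Of 36 members, 6 were at least 1.5-fold higher in both libraries and 0 lower in both, beside 0.567% and 1.89% of all genes. The medians were 0.09 and 0.20, beside -0.04 and -0.02 for all genes. The 6 were VIM, SPOCK1, CDH2, FN1 and SNAI2, described above, and COL5A1, a fibrillar collagen chain that stood at 30.8, 63.2 and 50.2 CPM in shCtrl 1, shCCT2 1 and shCCT2 2. TWIST1, another transcription factor linked to mesenchymal change, stood at 3.45, 2.97 and 3.36 CPM. Beside 1.89% and 0.567% of all genes, 3 of 32 epithelial junction genes were at least 1.5-fold lower in both libraries and 0 higher. These were CLDN1, DSC3 and PKP1, a desmosomal plaque protein that stood at 149, 83.7 and 89.2 CPM. CDH1, or E-cadherin, stood at 243, 173 and 203 CPM, and its changes of -0.48 and -0.26 stayed within 1.5-fold. The junction list's medians were -0.24 in shCCT2 1 and -0.06 in shCCT2 2. Among integrins, 0 of 12 passed 1.5-fold in both, and ITGB4, the beta chain of hemidesmosomes, stood at 426, 318 and 322 CPM.

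Most transcripts of the PI3K-AKT relay itself stayed close to shCtrl 1. Of 29 members, 0 were 1.5-fold higher and 0 lower in both libraries, beside 0.567% and 1.89% of all genes. At those shares a list of this size holds few such genes, so the 0 is not a result about the pathway. The list medians were 0.04 and 0.01. INPP5D, PHLPP1 and PIK3CD were past 1.5-fold lower in shCCT2 1 alone (-0.84, -0.67 and -0.62). SGK1 was past 1.5-fold higher in shCCT2 2 alone (0.66). Of all genes, 11.4% were that much lower in shCCT2 1 and 1.96% that much higher in shCCT2 2. At those shares a list of this size holds such genes, so these members are not a result about the pathway. AKT1, the kinase that gives the pathway its name, stood at 212, 218 and 221 CPM in shCtrl 1, shCCT2 1 and shCCT2 2. PIK3CA, the catalytic subunit of PI3K, stood at 77.6, 58.2 and 67.6 CPM. PDPK1, which phosphorylates AKT, stood at 54.8, 70.3 and 64.4 CPM, and PHLPP2, which removes a phosphate from AKT, at 21.1, 27.1 and 26.7 CPM. These are levels of messenger RNA and not of phosphorylated protein. Of 21 receptor and adaptor genes that feed PI3K, 1 passed 1.5-fold in both: GAB2, a docking adaptor, at 3.73, 1.87 and 2.28 CPM. Its relative GAB1 stood at 18.4, 13.2 and 13.4 CPM, and AXL, a receptor tyrosine kinase, at 326, 413 and 402 CPM.

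FOXO transcription factors are held out of the nucleus by AKT. Of 24 members of the list of FOXO genes and their targets, 4 were at least 1.5-fold lower in both libraries and 0 higher in both. The shares over all genes were 1.89% and 0.567%. The list medians were -0.36 and -0.20, beside -0.04 and -0.02 for all genes. The 4 were 2 of the factors themselves, FOXO1 and FOXO4, and the targets TNFSF10 and SESN3. TNFSF10, the death ligand TRAIL, stood at 16.0 CPM in shCtrl 1, 5.07 in shCCT2 1 and 4.96 in shCCT2 2, changes of -1.56 and -1.59. FOXO1 stood at 25.9, 13.8 and 13.3 CPM, and FOXO4 at 3.06, 0.881 and 1.71 CPM. SESN3, a sestrin, stood at 2.23, 0.606 and 0.627 CPM, from 40, 11 and 11 counts, so it passed the filter through shCtrl 1 alone. Its mean change was -1.70 with 0.1 CPM added and -0.997 with 1 CPM. CDKN1B, the cell cycle inhibitor p27, stood at 18.8, 19.1 and 20.3 CPM. Among p53 targets, 1 of 21 passed 1.5-fold in both, GDF15. CDKN1A, the inhibitor p21, stood at 84.7, 147 and 122 CPM.

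In the cell cycle lists cyclins D1 and D2 lay on opposite sides of shCtrl 1. CCND1, which encodes cyclin D1, stood at 274 CPM in shCtrl 1, 465 in shCCT2 1 and 468 in shCCT2 2, changes of 0.76 and 0.77, while CCND2 was lower as given above. They were the only members of the 32 G1/S and DNA replication genes past 1.5-fold in both libraries. Over all genes, 0.567% were that much higher in both and 1.89% that much lower. RRM2, a subunit of ribonucleotide reductase, stood at 324, 571 and 460.2 CPM, and CCNE2, cyclin E2, at 23.1, 40.3 and 34.5 CPM with fractional counts. The medians of the list were 0.28 in shCCT2 1 and 0.06 in shCCT2 2. Of 27 genes of G2/M and mitosis, 25 lay above shCtrl 1 in shCCT2 1 and 25 in shCCT2 2 (92.6% in each, beside 44.9% and 46.4% of all genes), with medians of 0.36 and 0.24. None of them passed 1.5-fold in both libraries, which at the shares over all genes is not a result about the list. MKI67, the proliferation antigen Ki-67, stood at 398, 772 and 493 CPM, and CDC20, an activator of the anaphase-promoting complex, at 357, 269 and 275 CPM.

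Immediate early genes, which growth factor and stress signals switch on within minutes, differed between the knockdown libraries. Of 24 AP-1 and immediate early genes, 11 were at least 1.5-fold higher in shCCT2 2 than in shCCT2 1 and 2 lower, beside 9.09% and 2.79% of all genes. MYC, a transcription factor of growth, stood at 401 CPM in shCtrl 1, 317 in shCCT2 1 and 3082 in shCCT2 2. EGR1, a zinc finger factor, stood at 356, 64.5 and 711 CPM. For both genes the knockdown libraries lay on different sides of shCtrl 1. FOS stood at 9.68, 2.53 and 17.8 CPM, and DUSP1, a phosphatase of MAP kinases, at 44.4, 26.8 and 94.95 CPM. DUSP6, a feedback phosphatase of ERK, was the member lower by 1.5-fold in both, beside 1.89% of all genes, at 144, 49.5 and 91.9 CPM.

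Genes of squamous differentiation, the program by which stratified epithelium makes its protective surface, were lower in shCCT2 1 than in shCCT2 2 for most members. Of 27 members, 14 were at least 1.5-fold lower than shCtrl 1 in shCCT2 1 and 2 in shCCT2 2, beside 11.4% and 2.94% of all genes, and the medians were -0.82 and 0.05. Between the knockdown libraries, 13 members were at least 1.5-fold higher in shCCT2 2 and 2 lower, beside 9.09% and 2.79% of all genes. LCN2, an iron-scavenging lipocalin, stood at 26.8 CPM in shCtrl 1, 4.02 in shCCT2 1 and 41.2 in shCCT2 2. SERPINB4, squamous cell carcinoma antigen 2, stood at 40.3, 2.75 and 26.8 CPM and is a near copy of SERPINB3. SERPINB3 and KRT6B were the members 1.5-fold lower in both libraries, beside 1.89% of all genes. KRT6B, a keratin of activated epithelium, stood at 1.56, 0.662 and 0.628 CPM with fractional counts and passed the filter through shCtrl 1 alone. Its mean change was -1.15 with 0.1 CPM added and -0.64 with 1 CPM. NGFR, the low-affinity neurotrophin receptor and a basal keratinocyte gene, stood at 47.7, 5.67 and 42.5 CPM. The carcinoma marker sum given above was lower in shCCT2 1 as well, and the basal keratinocyte list had medians of -0.36 and -0.12. KRT5, the keratin of basal cells, stood at 1874, 854 and 1271 CPM with fractional counts.

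The genes ranked by how far shCCT2 1 lay above shCCT2 2 were MMP1, SLC7A11, SLC30A1, THBS1, MARCHF4 and VIM, so that this difference chose them. MMP1, interstitial collagenase, stood at 22.3 CPM in shCtrl 1, 87.7 in shCCT2 1 and 10.5 in shCCT2 2. MMP3, stromelysin-1, which the ranking did not reach, stood at 4.51, 23.7 and 1.65 CPM. THBS1, the matrix glycoprotein thrombospondin-1, stood at 917, 1943 and 517 CPM with fractional counts. All 3 were above shCtrl 1 in shCCT2 1 and below it in shCCT2 2. SLC30A1, a zinc exporter, stood at 6.06, 21.0 and 4.73 CPM, and MARCHF4, a membrane ubiquitin ligase, at 16.2, 47.9 and 15.04 CPM. SLC7A11, the cystine and glutamate exchanger, stood at 54.9, 121 and 24.9 CPM.

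SLC7A11 belongs to the targets of NRF2, the transcription factor of the oxidative stress response. The medians of the 24 NRF2 targets were -0.03 in shCCT2 1 and -0.47 in shCCT2 2, and all 24 lay below shCtrl 1 in shCCT2 2, beside 53.6% of all genes. In shCCT2 1, 13 of them did (54.2%), beside 55.1% of all genes. Between the knockdown libraries, 10 members were at least 1.5-fold lower in shCCT2 2 and 0 higher, beside 2.79% and 9.09% of all genes. TXNRD1, thioredoxin reductase, stood at 723 CPM in shCtrl 1, 942 in shCCT2 1 and 512 in shCCT2 2. NQO1, a quinone reductase, stood at 298, 365 and 206 CPM. Lower by 1.5-fold in both libraries were 5 members, beside 1.89% of all genes. FTH1, the heavy chain of ferritin, was one, at 3534, 2233 and 2198 CPM. GPX2, a glutathione peroxidase, stood at 4.23, 1.93 and 0.797 CPM, and PIR, or pirin, at 9.18, 5.40 and 3.82 CPM. The aldo-keto reductases AKR1C3, at 6.23, 2.81 and 3.19 CPM, and AKR1B10, at 1.17, 0.441 and 0.342 CPM, were the others. AKR1B10, with 21, 8 and 6 counts, passed the filter through shCtrl 1 alone, and its mean change was -1.38 with 0.1 CPM added and -0.64 with 1 CPM.

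**Figure D3:**
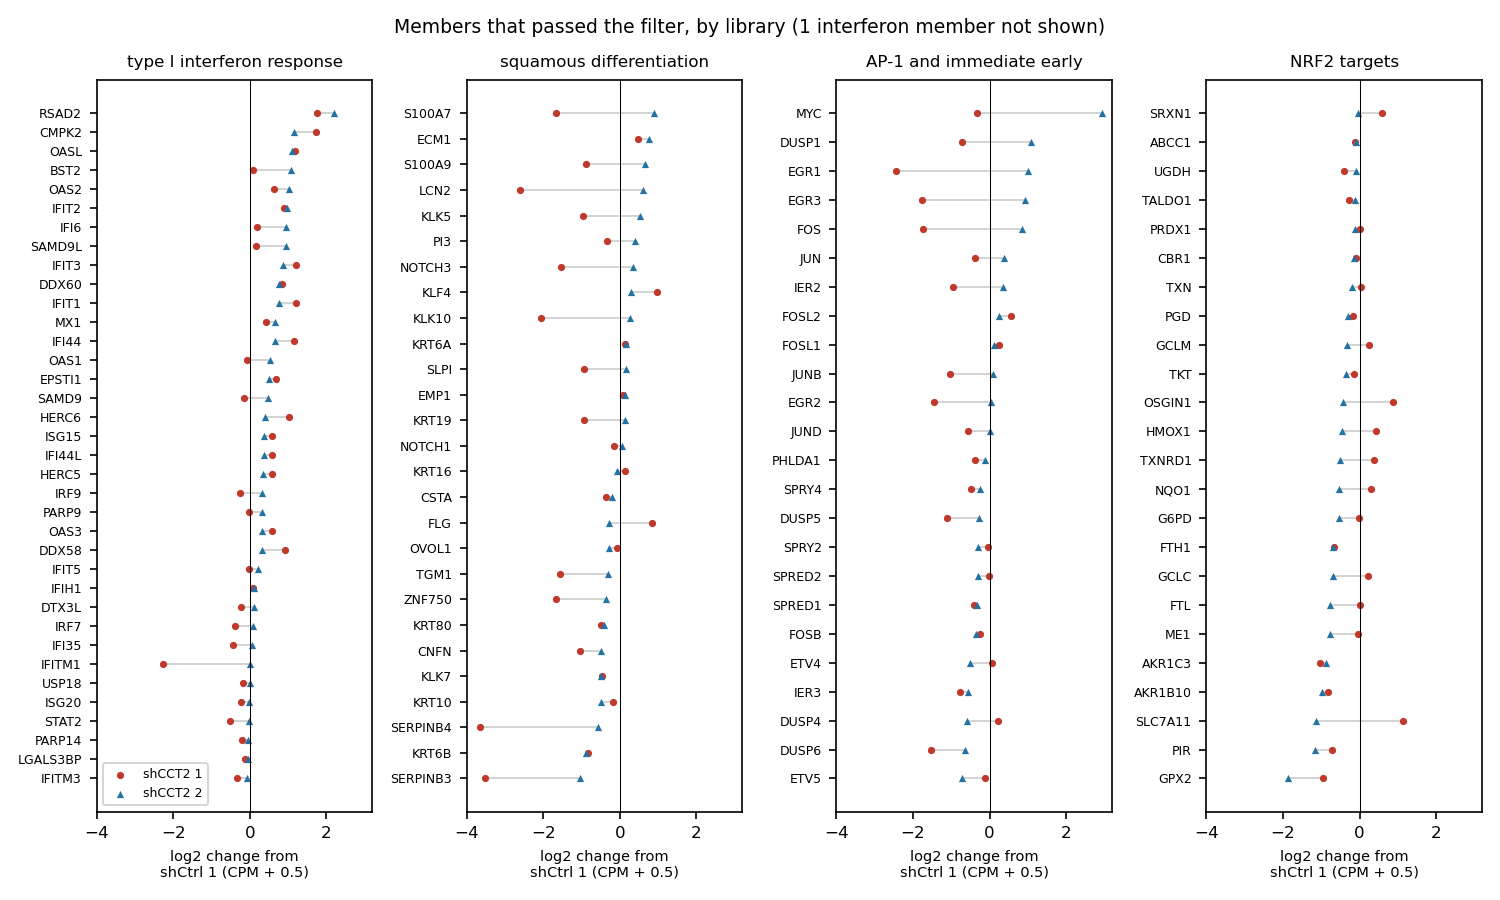
Log2 change against shCtrl 1 (CPM with 0.5 added, x axis) of members that passed the filter in 4 gene lists (1 interferon member is not shown), in shCCT2 1 (circles) and shCCT2 2 (triangles), ordered by the change in shCCT2 2. IFIT3 lies at 1.22 and 0.87 among the interferon genes, while circles lie left of triangles for most squamous differentiation and immediate early genes and right of them for most NRF2 targets.

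Most genes that handle protein folding and turnover differed little. Of 31 proteasome subunit genes, 20 cytosolic heat shock genes and 18 genes of the unfolded protein response, 0 passed 1.5-fold in both libraries in either direction. Over all genes, 0.567% were higher in both and 1.89% lower, so lists of these sizes hold few such genes and the 0 alone is not a result. HSPA1B, with fractional counts, was the only member of these lists past 1.5-fold in either library, at -0.63 in shCCT2 1. HSPA8, the constitutive HSP70 of the cytosol, stood at 2215 CPM in shCtrl 1, 2589.6 in shCCT2 1 and 2555 in shCCT2 2. HSP90AA1, the inducible HSP90, stood at 4113, 5445 and 4705 CPM with fractional counts. Of the transcripts that encode folding clients of CCT, 0 of 14 actin and tubulin genes passed 1.5-fold in both, and 13 passed it in neither. The other was TUBA1A, an alpha tubulin with fractional counts, at 73.7, 31.5 and 97.2 CPM (-1.21 and 0.40). TUBB, a beta tubulin, stood at 1637, 2025 and 1943 CPM, and ACTG1, gamma actin, at 3284, 2827 and 2849 CPM. TUBA1B, an alpha tubulin with near-identical relatives and fractional counts, stood at 1939.8, 2460.3 and 2514 CPM. Of 16 targets of ATF4, the factor of the integrated stress response, 0 were 1.5-fold higher in both and 0 lower in both, and the medians were -0.20 and -0.30. SLC7A11, given above, is also on this list and was past 1.5-fold on opposite sides of shCtrl 1, at 1.13 and -1.13.

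Large housekeeping lists were shifted slightly below shCtrl 1. Of 75 cytosolic ribosomal protein genes, 71 lay below shCtrl 1 in each knockdown library (94.7%, beside 55.1% and 53.6% of all genes), with medians of -0.24 in shCCT2 1 and -0.16 in shCCT2 2, and 0 passed 1.5-fold in both. RPLP2, a protein of the ribosomal stalk, stood at 662, 491 and 452 CPM in shCtrl 1, shCCT2 1 and shCCT2 2. Of 40 nuclear genes of oxidative phosphorylation, 30 and 33 lay below shCtrl 1 (75.0% and 82.5%), with medians of -0.09 and -0.11. COX5B, a subunit of cytochrome c oxidase, stood at 139, 107 and 99.9 CPM. Cholesterol synthesis genes had medians of -0.39 and -0.08, and MVD, the decarboxylase of the mevalonate pathway, stood at 27.0, 14.4 and 19.8 CPM. Beside 0.567% and 1.89% of all genes, 1 of 25 YAP and TGF-beta targets was 1.5-fold higher and 1 lower in both. These were CTGF, a matricellular growth factor, at 7.40, 14.0 and 12.9 CPM, and BMP4, a bone morphogenetic protein, at 1.28, 0.275 and 0.627 CPM. BMP4, with 23, 5 and 11 counts, passed the filter through shCtrl 1 alone, and its mean change was -1.40 with 0.1 CPM added and -0.66 with 1 CPM. Of 28 NF-kB, chemokine and cytokine genes, CCL5 was higher in both, at 0.734, 1.54 and 2.79 CPM, and CCL2 lower in both, at 10.8, 1.38 and 5.13 CPM. CCL5, with fractional counts in all 3 libraries, passed the filter through the knockdown libraries alone. Its mean change was 1.39 with 0.1 CPM added and 0.84 with 1 CPM.

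**Figure D4:**
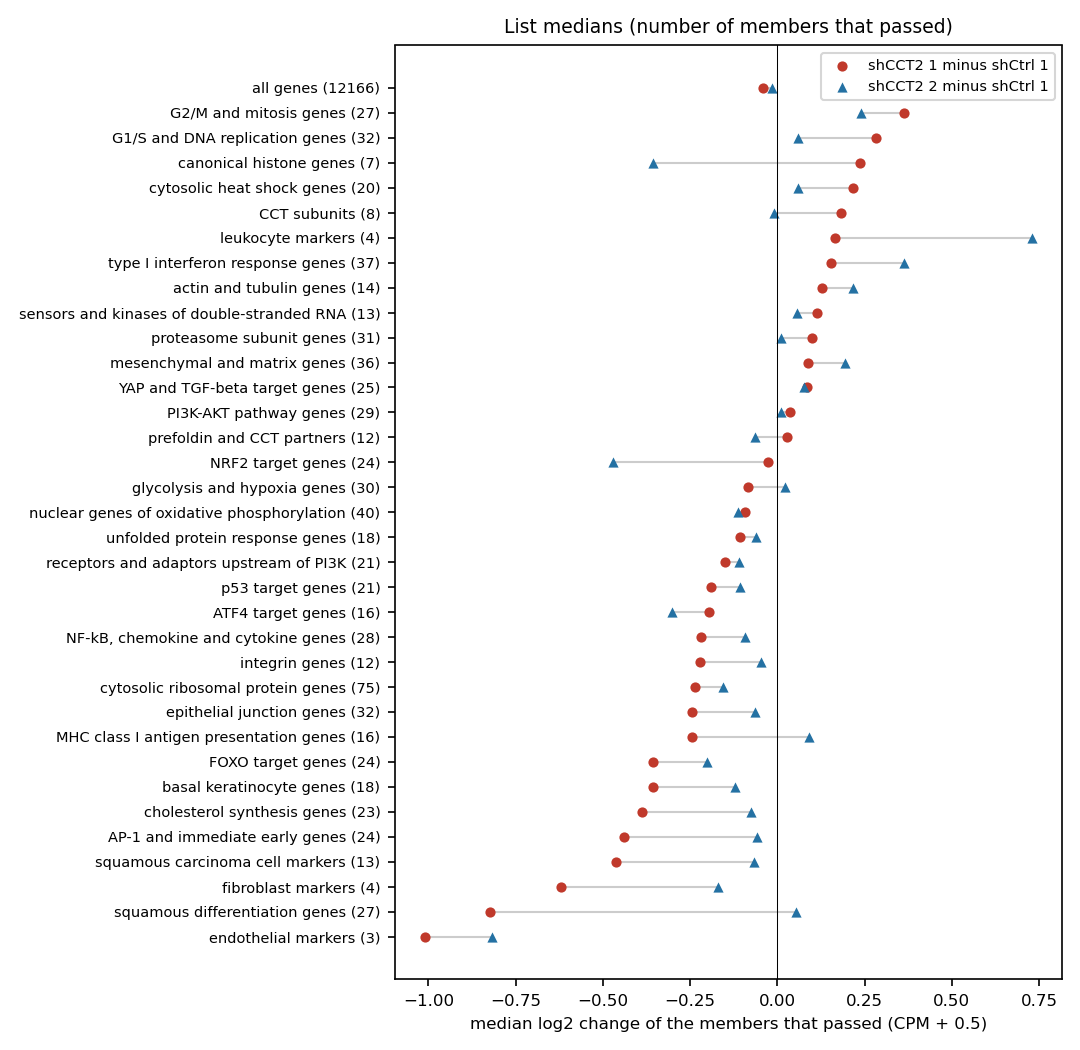
Median log2 change against shCtrl 1 (CPM with 0.5 added, x axis) of the members that passed in each of 34 gene lists and in all genes, in shCCT2 1 (circles) and shCCT2 2 (triangles), joined by a grey line and with the number of members in brackets. G2/M genes are highest in shCCT2 1 at 0.36, and the squamous differentiation list shows one of the widest gaps, from -0.82 to 0.05.

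Over all genes, shCCT2 1 stood farther from shCtrl 1 than shCCT2 2 did, although CCT2 was at a similar level in both. The SD of the log2 change over the 12166 genes was 0.45 in shCCT2 1 and 0.28 in shCCT2 2, and that of the difference between the knockdown libraries was 0.42. The 2283 genes at 100 CPM or more, whose median counting error is 0.036 on this scale, gave 0.34, 0.20 and 0.33. Medians in shCCT2 1 were lowest for scarce and for GC-rich genes. With genes in 5 groups of equal size, from the lowest to the highest transcript GC content, the median change in shCCT2 1 went from 0.02 to -0.19, and in shCCT2 2 from 0.01 to -0.05. From the lowest to the highest of 5 groups by mean CPM it went from -0.25 to 0.06 in shCCT2 1 and from -0.07 to 0.00 in shCCT2 2. The 429 genes with a GC value that were 2-fold lower in shCCT2 1 had a median GC content of 53.1% and a median of 5.64 CPM, against 48.4% and 31.8 CPM for all 12059 genes with a value. The share of reads near the end of window positions, given at the outset, was also farthest from shCtrl 1 in shCCT2 1. The part of GC content, level and read position in the genes lower in shCCT2 1 was not tested.

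**Figure D5:**
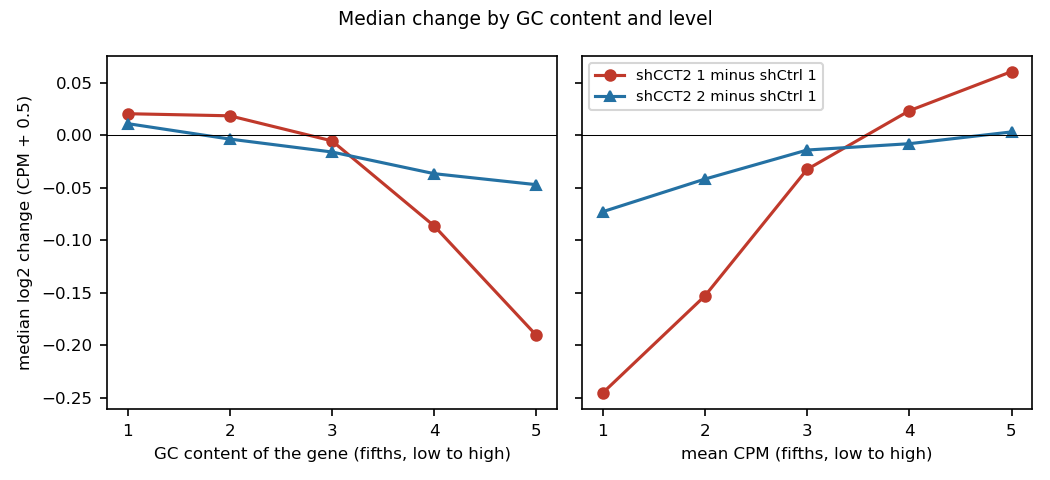
Median log2 change against shCtrl 1 (CPM with 0.5 added, y axis) of genes in 5 groups of equal size by transcript GC content (left) and by mean CPM (right), in shCCT2 1 (circles) and shCCT2 2 (triangles). The median falls to -0.19 in the most GC-rich group and to -0.25 in the group with the lowest CPM in shCCT2 1, and stays between -0.07 and 0.01 in shCCT2 2.

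The first table listed 763 genes that the second does not list, and 38 of them passed the filter. The most abundant was ITGA4, the alpha 4 integrin chain, at 72.5 CPM in shCtrl 1, 47.4 in shCCT2 1 and 71.9 in shCCT2 2. PCDHGB5, a gamma protocadherin that shares exons with its cluster, stood at 41.0, 43.8 and 36.4 CPM, and both had fractional counts. GTSF1, a zinc finger protein of the piRNA pathway, stood at 34.9, 37.2 and 28.5 CPM. DPYSL5, a cytosolic protein related to dihydropyrimidinase, stood at 31.4, 31.0 and 31.1 CPM and was level across the libraries. PWP2, a ribosome biogenesis factor, stood at 21.6, 21.5 and 18.1 CPM with fractional counts, and ANO2, a calcium-activated chloride channel, at 6.40, 11.8 and 4.44 CPM. Of these 6 genes, ITGA4 (-0.61 and -0.01) and ANO2 (0.84 and -0.48) had a knockdown library at least 1.5-fold from shCtrl 1, and neither had both.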

How the data were processed

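RNA was extracted with Trizol, messenger RNA was selected with oligo(dT), and random-primed cDNA was read on an MGI instrument, per the labels' protocols. The authors deposited estimated counts per gene, named read counts per the file headers, of which 87.8% to 87.9% per library were whole numbers. The authors also deposited a signal of reads per window along transcripts for each library, per the file headers. Of tools and builds, HTSeq, STAR 1.5.1 and mm10, a mouse build, are listed with no role in the submitters' processing notes, while 98.8% of the gene identifiers matched human RefSeq genes. Counter, build and use of strand are not given in the sources used here. Reads of a gene and of one that overlaps it, antisense genes included, may therefore be mixed, and genes with near-identical copies are uncertain. Symbols of 24 genes that had become dates were restored from the identifier.

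CPM was computed from column totals, without rounding, and changes as log2 of CPM plus 0.5 for genes with 20 or more counts in at least 1 library. No p-value was computed. Named were CCT2; the 12 genes per direction with the largest nearer change (the smaller of the 2) at a mean of 10 CPM or more; up to 4 members per list by the same measure; up to 6 genes that the second table does not list, by level; and up to 6 per direction that differed most between the knockdown libraries at 10 CPM or more. Other genes were chosen after their values were seen. Values of 2 list members are not reported here. The members and the 34 lists were chosen with earlier results of these data known. GC content is that of the longest GENCODE v29 transcript, and promoters are those of RefSeq on GRCh38.p14. Chi-square per degree of freedom between libraries was 20.8 to 44.5, so none was a copy of another. Alternatives used scaling factors of edgeR 4.0.16 (TMM) and DESeq2 1.42.0 in R 4.3.3, other pseudocounts, filters and folds, genes of both tables only, and each knockdown library left out; the rest ran in Python 3.11.15. The steps were tested on simulated data.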

Additional observations from a re-analysis of the deposited data

How the results depend on the processing

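No paired analysis was possible because the result comes from no test and 1 control serves both knockdown libraries. At 1.5-fold in place of 2-fold, 69 genes were higher and 230 lower in both knockdown libraries, and 1446 stood apart between them. With 0.1 CPM added in place of 0.5, 30 were higher and 70 lower in both, and with 1 CPM added 10 and 22. Leaving out either knockdown library gave 57 to 70 higher and 77 to 440 lower genes, since 1 library then decides the count. The mean CCT2 change of -1.18 ran from -1.22 to -1.13 when either was left out. TMM and DESeq2 factors moved the median of all genes from -0.029 to -0.002 and 0.003. Of 158 named genes, signs of the mean changed for 1 under either scaling (DPYSL5), 1 with 0.1 CPM added (SLC7A11), 9 without shCCT2 1 and 5 without shCCT2 2. Of 34 list medians, 1 changed sign with TMM (prefoldin), 2 with DESeq2 (prefoldin, glycolysis), 1 with a 50-count filter (histones), 4 without shCCT2 1 and 2 without shCCT2 2. With a single control, none of these settings shows how much shCtrl 1 itself would vary. At 20 counts a 2-fold difference rests on few reads.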

Other observations

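Some gene families were described after their values were seen, and some of their members are also on the lists above. Of 4 genes of metallothioneins, small proteins that bind zinc and copper, 3 were at least 1.5-fold above shCtrl 1 in shCCT2 1 and 0 in shCCT2 2. The shares of all genes were 2.98% and 1.96%, so the 0 alone is not a result. MT2A stood at 3062 CPM in shCtrl 1, 4662 in shCCT2 1 and 2887 in shCCT2 2. MT1X stood at 44.6, 82.9 and 48.2 CPM, and MT1E, whose counts were fractional in 1 library, at 219, 693 and 277 CPM. MT1F stood at 1.95, 2.04 and 1.88 CPM.

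Of 9 genes of kallikrein-related peptidases, secreted proteases of the epidermis, 8 were at least 1.5-fold below shCtrl 1 in shCCT2 1 and 0 in shCCT2 2. Over all genes 11.4% and 2.94% were that much lower, so the 0 alone is not a result. KLK10 stood at 77.7 CPM in shCtrl 1, 18.2 in shCCT2 1 and 93.6 in shCCT2 2. KLK5 stood at 85.8, 43.6 and 124 CPM, and KLK6 at 133, 86.5 and 172 CPM. KLK7, the member that was not, stood at 2.89, 1.98 and 1.94 CPM. KLK11, one of the 8, had 25, 1 and 15 counts and passed the filter through shCtrl 1 alone. Among S100 proteins, which bind calcium, S100A9 stood at 72.9, 39.2 and 115 CPM, whereas S100A11 stood at 545, 558 and 551 CPM. Of 10 genes of the SERPINB inhibitor family, 7 were at least 1.5-fold below shCtrl 1 in shCCT2 1 and 4 in shCCT2 2. The shares of all genes were 11.4% and 2.94%. In either library 0 were that much higher, beside 2.98% and 1.96% of all genes. SERPINB3 and SERPINB4, of the squamous differentiation list, belong to this family. SERPINB2, which inhibits plasminogen activators, stood at 948, 585 and 399 CPM, and SERPINB5, or maspin, at 106, 100.02 and 93.2 CPM.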
